A study of Gallus gallus with 6 samples.

Results

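Kinesins are motor proteins that move along microtubules, and tubulins are the proteins of which microtubules are built. Their genes were followed here in chicken bursal cells, from the gut-linked organ (bursa of Fabricius) in which the bird's B cells mature. The members were all probe sets whose only gene symbol in the platform annotation starts with KIF and a digit, or with TUBA, TUBB, TUBG, TUBD or TUBE. This gave 124 of the 38439 probe sets tested and 52 of 13009 named genes. There were 32 kinesins, 15 tubulins, 4 partners of gamma-tubulin in its complex (TUBGCP genes, which share the first letters) and KIF1BP, which binds kinesins and is not a motor.

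A microtubule is a hollow polymer of alpha- and beta-tubulin, and gamma-tubulin, held in a ring complex at the centrosome, starts its growth. Mitotic kinesins build the spindle, move chromosomes and help to part the daughter cells, and their messages are made mainly in dividing cells. Transport kinesins carry vesicles and organelles, also in cells that do not divide. Most of the roles given below were worked out in mammalian cells.

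In one group, called SCA2, bursal cells were cultured on a monolayer of DF1 cells that expressed Flag-tagged stem cell antigen 2 (SCA2Flag-DF1). In the other, called control, they were cultured on DF1 cells with the vector (Vector-DF1). DF1 is a chicken embryo fibroblast line, and in both groups the bursal cells came from 3-week-old line 0 chickens, were plated at 2000000 per culture and kept overnight at 37 °C in medium with 4% serum. Washing was meant to free them from the DF1 cells, which adhere. Whether DF1 RNA stayed in the harvest was not tested, and fibroblast markers were measured in both groups (below). From each culture 10 µg of total RNA went into labelling, and the Affymetrix chicken array was used for 3 SCA2 and 3 control samples. SCA2 was carried by the monolayer and not by the bursal cells, and the labels do not say whether each culture came from its own birds.

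Values are log2 of the deposited intensities, and a change is SCA2 minus control. The test was limma's moderated test, with Benjamini-Hochberg adjustment over the 38439 probe sets and a threshold of 0.05. Each gene is represented by its brightest probe set unless another is named. In the whole series 47.0% of named genes were called, 26.2% higher and 20.8% lower with SCA2, so a call by itself is common here. Log2 intensities correlated with r of 0.995 to 0.997 among the SCA2 arrays, 0.99 to 0.995 among the control arrays and 0.962 to 0.98 between groups. A log2 intensity of 4.92 served as background mark, the level under which lay the means of 95% of 689 probe sets whose identifiers are sequence records outside the chicken gene clusters.

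Intensities of cell type markers differed between groups, and these values stand beside every result below. Of the B cell markers 13 of 16 fell and 0 rose, and their summed intensity was 18756 to 21315 on SCA2 arrays, against 45794 to 47484 on control arrays. CD79B, a chain of the B cell receptor, averaged 11.39 in SCA2 and 12.75 in control, so the labelled cell type was present in both. Of the fibroblast markers 14 of 19 rose and 3 fell, with sums of 55321 to 56993 in SCA2 and 30680 to 31203 in control. T cell markers (8 of 9 lower) summed to 2503 to 2551 in SCA2 and 6228 to 7392 in control, and macrophage markers (9 of 12 lower) to 3198 to 5218 in SCA2 and 10581 to 13929 in control. Epithelial markers (8 of 10 lower) summed to 3075 to 5999 in SCA2 and 10132 to 16696 in control. Thrombocyte and erythroid markers (6 of 7 lower) summed to 24728 to 25806 in SCA2 and 34129 to 37678 in control. Neuronal markers other than TUBB3 (2 of 9 higher, MAP2 and NEFL) summed to 503 to 548 in SCA2 and 254 to 306 in control, and 6 of the 9 lay below the background mark on every array, SNAP25, SYT1 and STMN2 among them. The other defining markers below it on every array were RAG2 of B cells, TLR4 of macrophages, ESRP1 of epithelium and GP9 of thrombocytes. Whether the cell mixture of the harvest differed, and what part it has in the kinesin and tubulin results, was not tested. In bulk RNA a change in the number of cells of a type and a change in RNA per cell cannot be told apart.

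Of the 52 genes, 26 rose and 4 fell with SCA2, and 22 did not pass the test, so that 57.7% were called, against 47.0% of all named genes. The median change was 0.36, beside -0.01 over all named genes. Calls were more common, at 53%, among named genes above the background mark on at least 1 array. Over probe sets, 50 of 124 rose and 6 fell, where 18.2% of all probe sets rose and 17.1% fell (35.3% called). The number that fell varied with the array left out: it was 1 without SCA2 1 or SCA2 3 and 4 without SCA2 2 or control 2. It was 6 without control 1 and 7 without control 3. Falls over all probe sets also dropped, from 6565 to 4497 without SCA2 1 and to 4712 without SCA2 3. The groups did not overlap in 71 of 124 probe sets, against 48.9% of all, and in 34 of 52 genes, against 61.3% of all named genes. A rise of at least 2-fold was called for KIF26A, KIF20A and KIF24 among the brightest probe sets, 3 of 52 genes, against 5.86% of all named genes, and a fall of that size for 0, against 5.43%. Over all probe sets 9 of 124 rose at least 2-fold, against 4.34% of all, and they include dimmer ones of KIF5B, KIF5C, KIF2A, TUBB2A and TUBGCP4. Of the 52 genes 46 exceeded the background mark on at least 1 array. The 6 that stayed below it on all arrays were KIF6, KIF27, KIF21A, KIF20AL, TUBA8A and TUBA8B.

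**Figure D1:**
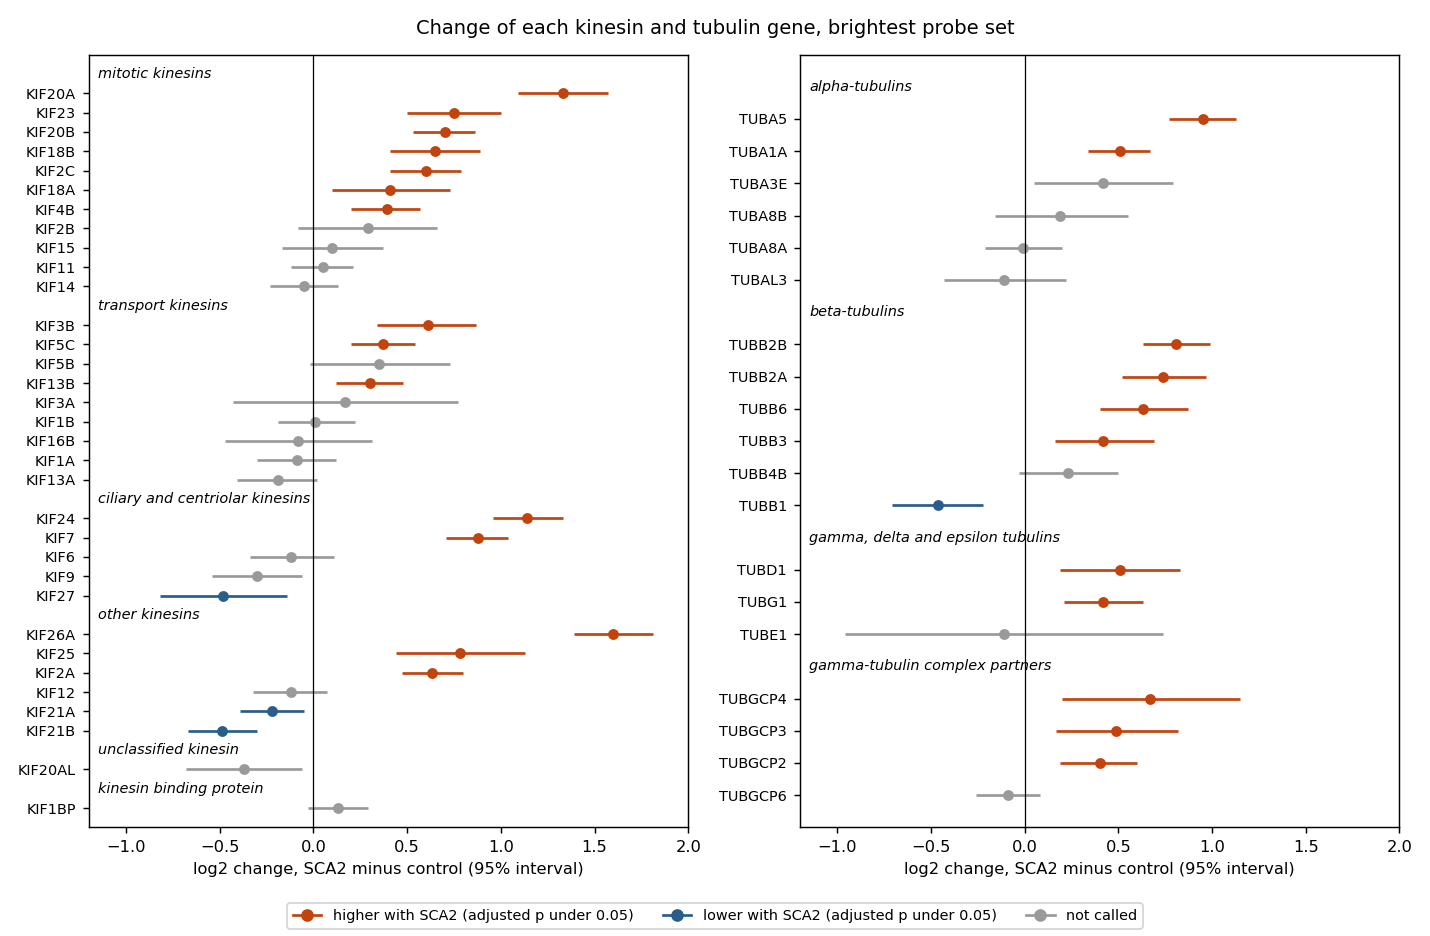
Log2 change (SCA2 minus control, x axis) of the brightest probe set of each of the 52 genes, by class, with its 95% interval from limma; orange marks a called rise, blue a called fall, grey neither. KIF26A (1.60) and KIF20A (1.33) lie farthest to the right, and of the mitotic kinesins 7 of 11 rose.

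Of the 11 mitotic kinesins 7 rose with SCA2 and 0 fell, against 26.2% of named genes that rose. They were KIF20A, KIF23, KIF20B, KIF18B, KIF2C, KIF18A and KIF4B. The class had a median change of 0.41 and a range of -0.05 to 1.33. KIF11, KIF14, KIF15 and KIF2B did not pass the test.

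KIF20A, a motor of the central spindle needed for cytokinesis, had log2 intensities of 11.22, 11.26 and 11.16 in SCA2, against 10.00, 9.68 and 9.96 in control. The groups were more than 1 log2 unit apart, with a change of 1.33 (SE 0.10, 2.52-fold; limma, Benjamini-Hochberg adjusted p = 1.0e-04). A dimmer second probe set of KIF20A went the other way, with 5.86, 5.89 and 5.66 in SCA2 and 6.09, 6.05 and 6.14 in control. It was called lower (change -0.29; limma, adjusted p = 0.0373), and this call was lost without SCA2 1 (adjusted p = 0.0709), SCA2 3 (0.125), control 1 (0.0709), control 2 (0.0605) or control 3 (0.101). It was also lost with median centring (0.0626) and with a variance trend (0.0616), and the average of both probe sets of KIF20A rose by 0.52.

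KIF23, the motor of the centralspindlin complex that guides the cleavage furrow, measured 11.72, 11.53 and 11.56 in SCA2 and 11.03, 10.71 and 10.82 in control (change 0.75, SE 0.10; limma, adjusted p = 0.00141). Its other probe set changed by 0.92, with all SCA2 arrays above all control arrays in both probe sets. KIF20B, which also acts in cytokinesis, measured 10.37, 10.39 and 10.34 in SCA2 and 9.65, 9.63 and 9.74 in control (change 0.70, SE 0.07; limma, adjusted p = 3.4e-04). Here 3 of 5 probe sets rose, and the other 2 changed by -0.08 and 0.18 without passing the test. The average of the probe sets of KIF20B rose by 0.37.

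KIF2C, which takes microtubules apart at centromeres, measured 9.56, 9.40 and 9.46 in SCA2, against 8.92, 8.78 and 8.92 in control (change 0.60, SE 0.08; limma, adjusted p = 0.0012). The groups did not overlap, and 3 of its 4 probe sets rose. KIF18B, which shortens microtubules from their plus ends, measured 9.02, 9.32 and 9.01 in SCA2 and 8.42, 8.46 and 8.51 in control (change 0.65, SE 0.10; limma, adjusted p = 0.00241). The array SCA2 2 was the highest of the 6, and the groups did not overlap. KIF4B, the name in this annotation for a chromokinesin, rose in all 3 of its probe sets, by 0.38, 0.39 and 0.42.

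KIF18A, which damps the swings of chromosomes at the metaphase plate, measured 8.17, 7.85 and 7.96 in SCA2 and 7.60, 7.35 and 7.78 in control (change 0.41, SE 0.13; limma, adjusted p = 0.0477). Its groups lay close together, and the call was lost without SCA2 1 (adjusted p = 0.151), SCA2 3 (0.107), control 1 (0.0846) or control 2 (0.115). It was also lost after a second quantile normalization (0.0751), with array weights (0.0534) and with log2 of the value plus 16, where adjusted p was 0.05 after rounding. The number of mitotic kinesins that rose was then 6.

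The mitotic kinesins that did not pass the test include KIF11, the motor that pushes the spindle poles apart. KIF11 measured 11.83, 11.84 and 11.80 in SCA2 and 11.74, 11.82 and 11.77 in control, so that the groups overlapped, with a change of 0.05 and a 95% interval of -0.12 to 0.21. Its second probe set changed by -0.11 (interval -0.31 to 0.09). KIF15, which can help KIF11 to hold the spindle bipolar, changed by 0.10 (interval -0.17 to 0.37) in its brightest probe set, while a dimmer one rose by 0.72 (limma, adjusted p = 0.0074). KIF14, which acts in late cytokinesis, changed by -0.05 (interval -0.23 to 0.13), and KIF2B, a relative of KIF2C, by 0.29 (interval -0.08 to 0.66).

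**Figure D2:**
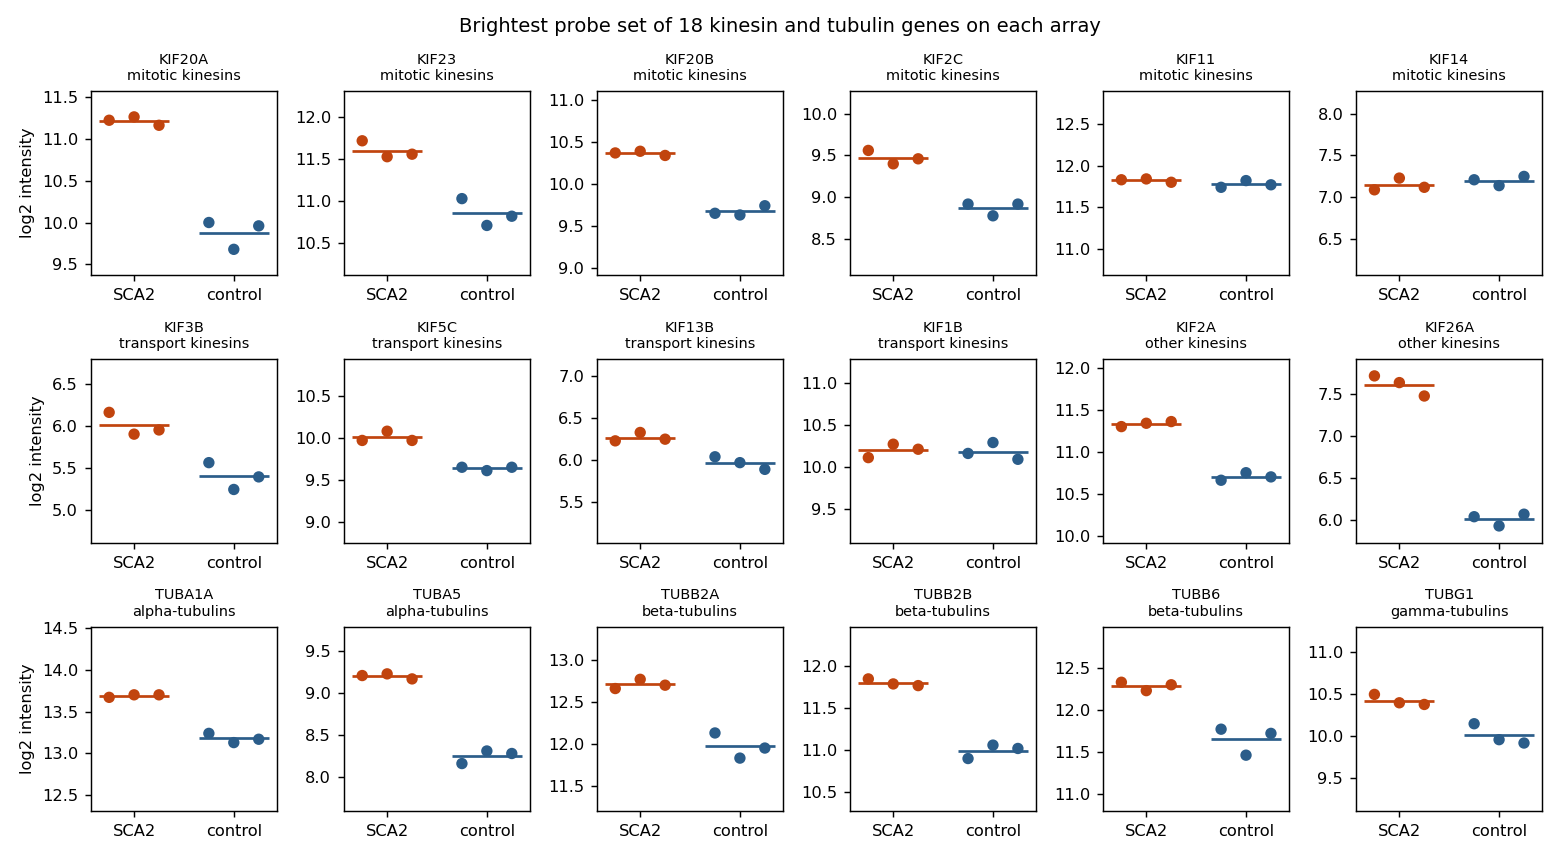
Log2 intensity (y axis, each panel spanning 2.2 units) of the brightest probe set of 18 genes on each array, orange for the 3 SCA2 arrays and blue for the 3 control arrays, with a line at each group mean. KIF20A stood at 11.16 to 11.26 in SCA2 and 9.68 to 10.00 in control, while the groups of KIF11, KIF14 and KIF1B overlapped.

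Of the 9 transport kinesins 3 rose and 0 fell, where 26.2% of named genes rose and 20.8% fell. In both directions together 33.3% of the class were called, against 47.0% of named genes, and its median change was 0.17. KIF3B, a motor of the kinesin-2 complex that also supplies cilia, measured 6.16, 5.90 and 5.95 in SCA2 and 5.56, 5.24 and 5.39 in control (change 0.61, SE 0.11; limma, adjusted p = 0.00511). All SCA2 arrays were above all control arrays in this probe set, while the other 2 probe sets changed by -0.16 and 0.23 and did not pass. When the probe sets of KIF3B were averaged, the call was lost (limma, adjusted p = 0.0569), and the change was 0.22.

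KIF5C, one of the conventional kinesin heavy chains, measured 9.97, 10.08 and 9.97 in SCA2 and 9.65, 9.61 and 9.65 in control (change 0.37, SE 0.07; limma, adjusted p = 0.00605). It rose in 3 of 4 probe sets, by up to 1.24. KIF13B, a carrier of the kinesin-3 family, measured 6.23, 6.33 and 6.25 in SCA2 and 6.04, 5.97 and 5.89 in control (change 0.30, SE 0.08; limma, adjusted p = 0.0202). The shift of KIF13B was small, and its call was lost without SCA2 1 (adjusted p = 0.0513), SCA2 2 (0.0621), SCA2 3 (0.0613) or control 3 (0.0642).

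KIF1B, which carries mitochondria and synaptic vesicle precursors in neurons, measured 10.11, 10.27 and 10.21 in SCA2 and 10.16, 10.29 and 10.09 in control in its brightest probe set (change 0.01, 95% interval -0.19 to 0.22). The groups overlapped there, while 2 of its other 4 probe sets rose, by 0.83 and 0.36. KIF5B, the widely used conventional kinesin, changed by 0.35 (interval -0.02 to 0.73) in its brightest probe set and rose by 0.83 and 1.31 in the other 2 (limma, adjusted p = 0.0109 and 0.0103). The last of these measured 8.08, 7.15 and 7.80 in SCA2 and 6.77, 5.91 and 6.42 in control, with wide spread and no overlap. When the probe sets of KIF5B were averaged, it was called higher, with a change of 0.83 (limma, adjusted p = 0.00116). KIF3A, the partner of KIF3B, changed by 0.17 with a wide interval of -0.43 to 0.77. KIF13A (-0.19), KIF16B (-0.08) and KIF1A (-0.09) did not pass the test in any of their probe sets.

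The comparison of mitotic with transport kinesins was made on each array as the mean of a class minus its mean over the control arrays. Mitotic kinesins stood at 0.48, 0.51 and 0.43 on SCA2 1, 2 and 3, against 0.05, -0.11 and 0.06 on control 1, 2 and 3. Transport kinesins stood at 0.12, 0.20 and 0.17 on the SCA2 arrays and at 0.02, 0.01 and -0.03 on the control arrays. Both classes were thus higher on each SCA2 array than on any control array, the mitotic class by more.

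The mitotic class minus the transport class stood at 0.36, 0.31 and 0.26 on the SCA2 arrays and at 0.03, -0.11 and 0.09 on the control arrays, a difference of 0.31 in the mean change of the classes. No p is given for it, since the classes were chosen with earlier results known. Its size rested on which probe set stood for a gene: it was 0.15 when all probe sets of a gene were averaged. Counted over all probe sets, 8 of 11 mitotic and 5 of 9 transport kinesins had at least 1 probe set that rose, where 30.3% of named genes had one. Such a count grows with the number of probe sets of a gene. By probe set, 15 of 30 mitotic and 9 of 32 transport ones rose, against 18.2% of all probe sets.

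**Figure D3:**
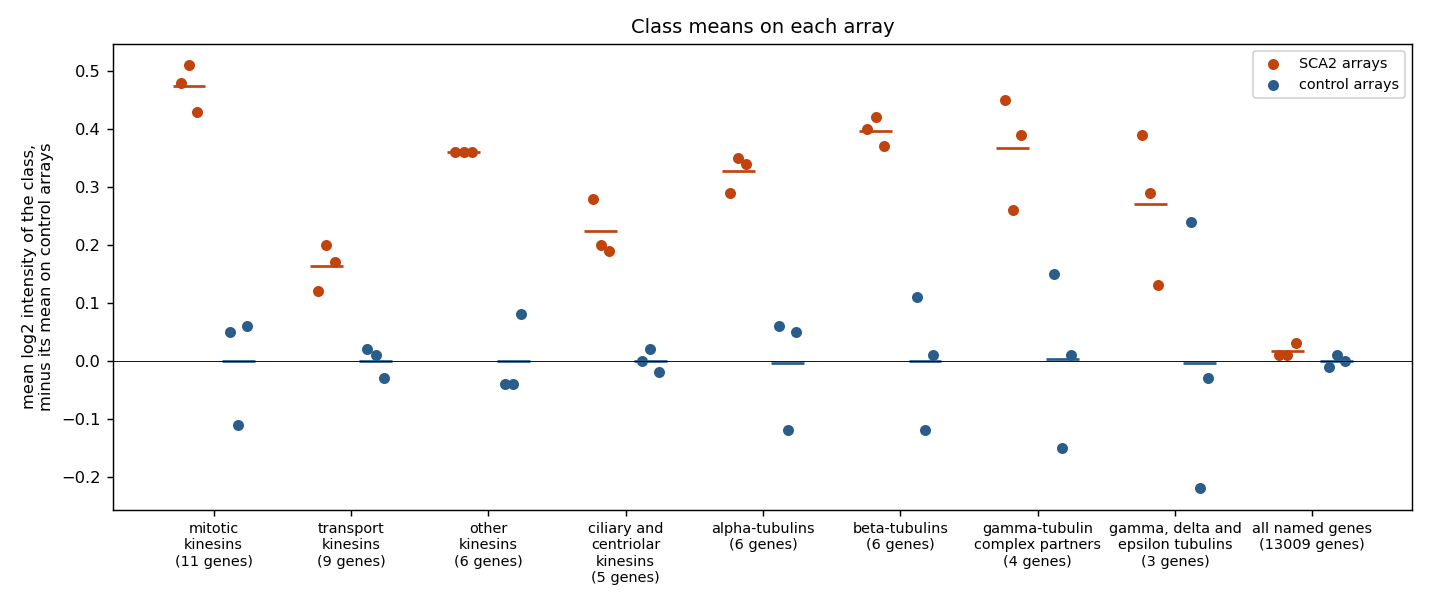
Mean log2 intensity of each class on each array minus its mean over the control arrays (y axis), for 8 classes and for all named genes; points are arrays (orange SCA2, blue control) and lines group means. Mitotic kinesins stood at 0.43 to 0.51 on the SCA2 arrays and transport kinesins at 0.12 to 0.20.

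Kinesins outside these classes moved in both directions, with 3 of 6 higher and 2 lower, where 26.2% of named genes were higher and 20.8% lower. KIF26A, an atypical kinesin without motor activity, had the largest rise of the kinesins and tubulins among brightest probe sets. It measured 7.72, 7.64 and 7.48 in SCA2 and 6.04, 5.93 and 6.07 in control (change 1.60, SE 0.09, 3.03-fold; limma, adjusted p = 3.9e-05). This rise was seen in 1 of its 3 probe sets, and the others, near or below the background mark, changed by 0.03 and -0.23. The average of the probe sets of KIF26A rose by 0.47.

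KIF2A, a microtubule depolymerase of spindle poles and of growing axons, measured 11.30, 11.34 and 11.36 in SCA2 and 10.66, 10.75 and 10.70 in control (change 0.63, SE 0.07; limma, adjusted p = 4.9e-04). The groups did not overlap, and the second probe set rose by 1.12. KIF25 measured 6.34, 6.17 and 6.47 in SCA2 and 5.49, 5.31 and 5.83 in control (change 0.78, SE 0.15; limma, adjusted p = 0.00534). Its second probe set, also above the background mark, changed by 0.09 without passing, and the average of both rose by 0.43.

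KIF21B, which restrains microtubule growth, was lower, with 4.86, 4.81 and 4.85 in SCA2 and 5.23, 5.33 and 5.42 in control (change -0.49, SE 0.08; limma, adjusted p = 0.00267). The SCA2 values lay under the background mark, so this change is set against background. KIF21A, its relative, measured 4.01, 4.04 and 4.04 in SCA2 and 4.18, 4.30 and 4.28 in control, below the mark in both groups. Its call (change -0.22; limma, adjusted p = 0.0475) was lost without SCA2 1 (0.139), SCA2 2 (0.0959), SCA2 3 (0.12), control 2 (0.109) or control 3 (0.116), and with both other scalings, where adjusted p was 0.174 after quantile normalization and 0.0909 with median centring. With log2 of the value plus 16 it was 0.0748 (change -0.12), with a variance trend 0.0885 and with averaged probe sets 0.062 (change -0.38). KIF12 (-0.12) and KIF20AL, a gene named after KIF20A (-0.37), did not pass the test, and neither did KIF1BP (0.13) in its brightest probe set. KIF1BP measured 10.80, 10.80 and 10.79 in SCA2 and 10.63, 10.69 and 10.68 in control. The only probe set of KIF20AL lay at 3.17, 3.44 and 3.56 in SCA2 and at 3.89, 3.56 and 3.84 in control, below the mark throughout. It was called lower without control 2 (limma, adjusted p = 0.0351) and in the fit to averaged probe sets (0.0473), where its change was the same -0.37.

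Among kinesins of cilia and centrioles 2 of 5 rose and 1 fell, against 26.2% and 20.8% of named genes. KIF24, which works at the mother centriole to hold back cilium growth, measured 6.05, 5.96 and 5.99 in SCA2 and 4.76, 4.92 and 4.89 in control (change 1.14, SE 0.08; limma, adjusted p = 7.0e-05). Its control values lay at the background mark, so its 2.21-fold change is set against background, and its other probe set, below the mark on every array, changed by 0.05, so that the average of both rose by 0.60. KIF7, a regulator of Hedgehog signalling at the cilium tip, measured 8.56, 8.52 and 8.47 in SCA2 and 7.66, 7.63 and 7.63 in control (change 0.88, SE 0.07; limma, adjusted p = 1.2e-04). The values of this probe set of KIF7 hardly varied within a group. A dimmer probe set of KIF7, also above the background mark, measured 6.85, 6.37 and 6.69 in SCA2 and 6.15, 5.90 and 6.41 in control. Its groups overlapped, and its change of 0.48 did not pass (limma, adjusted p = 0.0587).

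KIF27, a relative of KIF7, lay below the background mark on every array, at 3.53, 3.43 and 3.33 in SCA2 and 4.23, 3.84 and 3.67 in control. Its call (change -0.48; limma, adjusted p = 0.0387) was lost without SCA2 1 (0.0671), SCA2 2 (0.0855), SCA2 3 (0.123), control 1 (0.0527) or control 2 (0.0665), after a second quantile normalization (0.0623) and with log2 of the value plus 16 (0.0748, change -0.22). KIF6 and KIF9, found in motile cilia, did not pass in any of 4 probe sets each, with changes between -0.30 and 0.05. KIF9 was called lower without control 1 (limma, adjusted p = 0.0353) and when dim probe sets were filtered out at the lower quartile (0.0496) or the median (0.0385).

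Of the 15 tubulins 8 rose and 1 fell, where 26.2% of named genes rose and 20.8% fell. The fall was that of TUBB1, whose probe sets gave opposite calls (below). The median change of the tubulins was 0.42. With averaged probe sets 9 tubulins rose and 0 fell. The rises of the tubulins were all under 2-fold in the brightest probe sets. Coding sequences of tubulin isotypes are much alike. Of all 124 probe sets, kinesins included, 35 carry the suffix of probes shared by transcripts and 3 that of probes prone to cross-hybridize. Among tubulins the first suffix is on the brightest probe sets of TUBB2A and TUBE1. The second is on that of TUBB3 and on the dimmer probe set of TUBA1A. Signals of these probe sets can therefore hold RNA of other isotypes.

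Among alpha-tubulins 2 of 6 rose and 0 fell, where 26.2% of named genes rose and 20.8% fell. In both directions together 33.3% were called, against 47.0% of named genes. TUBA1A, named after an isotype abundant in the developing brain, measured 13.67, 13.70 and 13.70 in SCA2 and 13.24, 13.13 and 13.17 in control (change 0.51, SE 0.07; limma, adjusted p = 0.00137). Its other probe set changed by 0.50, so both gave the same size. TUBA5 measured 9.21, 9.23 and 9.17 in SCA2 and 8.16, 8.31 and 8.28 in control (change 0.95, SE 0.08; limma, adjusted p = 1.2e-04). The second probe set of TUBA5 changed by -0.26 and did not pass (95% interval -0.46 to -0.05; limma, adjusted p = 0.0546), and the average of both rose by 0.35. TUBA3E changed by 0.42 (interval 0.05 to 0.79; limma, adjusted p = 0.0801) and was called without control 3 (adjusted p = 0.0452). TUBAL3 changed by -0.11 (interval -0.43 to 0.22). TUBA8A and TUBA8B, which are neighbours with 0 protein-coding genes between them in the RefSeq gene order of the chicken assembly GRCg7b, both lay below the background mark on every array.

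Among beta-tubulins 4 of 6 rose and 1 (TUBB1, below) fell, against 26.2% and 20.8% of named genes. TUBB2B measured 11.85, 11.79 and 11.77 in SCA2 and 10.90, 11.06 and 11.02 in control (change 0.81, SE 0.08; limma, adjusted p = 2.4e-04). TUBB2A, which lies 1 protein-coding gene away from TUBB2B in that order, measured 12.66, 12.77 and 12.70 in SCA2 and 12.13, 11.83 and 11.95 in control (change 0.74, SE 0.10; limma, adjusted p = 9.6e-04). The neighbours rose by like amounts in their brightest probe sets, but that of TUBB2A has the suffix of shared probes and can hold RNA of other isotypes. A dimmer probe set of TUBB2A had the largest change of all 124, with 7.45, 7.10 and 6.80 in SCA2 against 4.46, 4.49 and 4.31 in control. Its control values were below the background mark, and the change of 2.70 (SE 0.16, 6.48-fold; limma, adjusted p = 4.4e-05) is set against background. The average of both probe sets of TUBB2A rose by 1.72.

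TUBB6, a widely expressed isotype, measured 12.33, 12.23 and 12.30 in SCA2 and 11.77, 11.46 and 11.72 in control (change 0.63, SE 0.10; limma, adjusted p = 0.0024). The groups did not overlap. TUBB3, an isotype used as a marker of neurons, measured 6.79, 6.87 and 6.71 in SCA2 and 6.59, 6.22 and 6.30 in control (change 0.42, SE 0.11; limma, adjusted p = 0.0241). Its call was lost without SCA2 1 (adjusted p = 0.0716), SCA2 2 (0.0715), control 2 (0.0662) or control 3 (0.0753). TUBB4B, a widely expressed isotype, measured 12.63, 12.43 and 12.54 in SCA2 and 12.47, 12.09 and 12.34 in control. These groups overlapped, and the change of 0.23 (95% interval -0.03 to 0.50) did not pass.

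TUBB1, named after the isotype of platelets and of bird thrombocytes and red cells, gave opposite calls in its 2 probe sets. The brighter measured 6.27, 6.54 and 6.29 in SCA2 and 6.94, 6.70 and 6.85 in control (change -0.46, SE 0.11; limma, adjusted p = 0.0125). The other measured 6.92, 7.0 and 6.92 in SCA2 and 5.97, 6.09 and 6.12 in control (change 0.89, SE 0.08; limma, adjusted p = 1.7e-04). No direction can be given for TUBB1 from these probe sets: their average changed by 0.21 (limma, adjusted p = 0.0401), and the fall lost its call without SCA2 1 (0.0507) or SCA2 3 (0.0525).

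Gamma-tubulin, the seed of microtubule growth, and part of its complex were higher. TUBG1 measured 10.50, 10.40 and 10.38 in SCA2 and 10.15, 9.96 and 9.92 in control (change 0.42, SE 0.09; limma, adjusted p = 0.00933), and its second probe set, below the background mark, changed by 0.08 (average of both 0.25). TUBD1, the delta-tubulin of centrioles, measured 10.08, 10.55 and 10.17 in SCA2 and 9.61, 9.86 and 9.80 in control (change 0.51, SE 0.14; limma, adjusted p = 0.0252). All 5 probe sets of TUBD1 rose, by 0.26 to 0.75, although the call of the brightest was lost without control 1 (adjusted p = 0.0682) or control 3 (0.0583) and after a second quantile normalization (0.0509). TUBE1, the epsilon-tubulin, changed by -0.11 with an interval of -0.96 to 0.74, too wide to tell a rise from a fall.

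Of the 4 gamma-tubulin complex partners 3 rose, against 26.2% of named genes. TUBGCP2, a core subunit, measured 9.79, 9.85 and 9.76 in SCA2 and 9.42, 9.28 and 9.52 in control (change 0.40, SE 0.09; limma, adjusted p = 0.0105). TUBGCP3, the other subunit of the small complex, measured 8.69, 8.30 and 8.51 in SCA2 and 8.20, 7.80 and 8.01 in control (change 0.49, SE 0.14; limma, adjusted p = 0.0281). Its groups did not overlap, but the call was lost without SCA2 1 (adjusted p = 0.0939), SCA2 3 (0.0818), control 2 (0.0748) or control 3 (0.0705). Its second probe set, above the background mark, changed by 0.11 with overlapping groups and did not pass (adjusted p = 0.508), and the average of both rose by 0.30.

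TUBGCP4, a subunit of the ring, measured 8.60, 8.15 and 8.54 in SCA2 and 8.17, 7.42 and 7.69 in control (change 0.67, SE 0.20; limma, adjusted p = 0.0375). The groups overlapped there, and the call was lost without SCA2 1 (adjusted p = 0.119), SCA2 3 (0.114), control 2 (0.0966) or control 3 (0.102) and after a second quantile normalization (0.0577). Dimmer probe sets of TUBGCP4 rose by 1.17 and 1.49 with no overlap, and 2 below the background mark did not pass. TUBGCP6, another ring subunit, changed by -0.09 (interval -0.26 to 0.08).

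Of the 52 genes 36 had more than 1 probe set, and the probe sets of a gene often differed in size of change. At least 1 probe set rose in 30 of the 52 genes, against 30.3% of all named genes, and at least 1 fell in 6, against 26.3%. Calls in both directions were found for 2 genes, KIF20A and TUBB1, where 1.70% of all named genes had them. Of the 34 member probe sets below the background mark on every array, 1 each of KIF27, KIF21A and KIF1BP was called lower, the only 3 calls. Calls below the mark were few among all named genes too. Genes above it on at least 1 array held 3349 of the 3410 rises and 2526 of the 2701 falls.

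**Figure D4:**
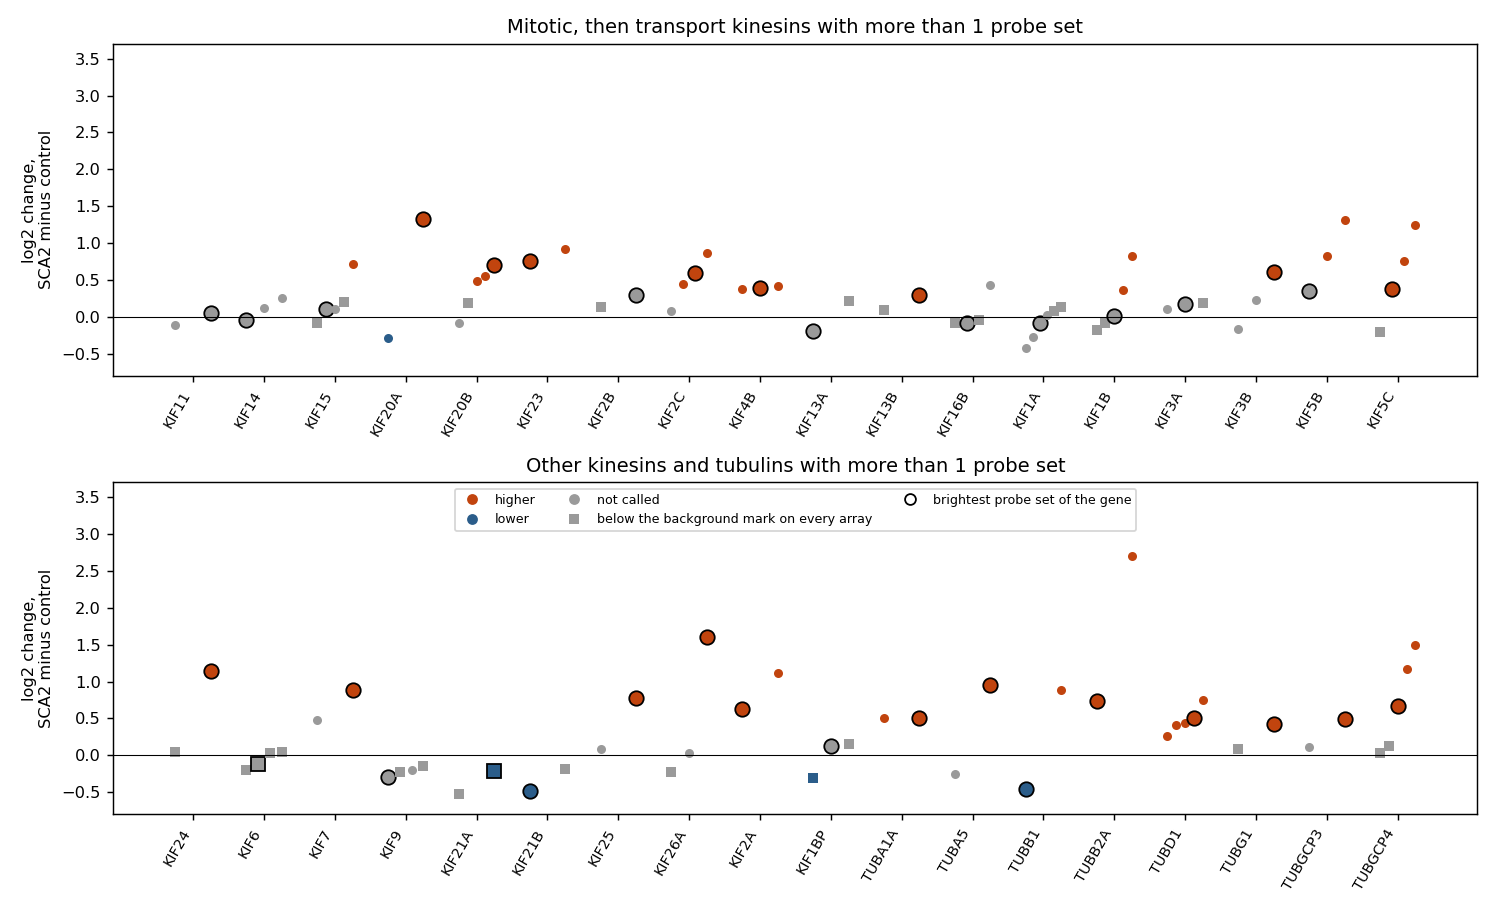
Log2 change (SCA2 minus control, y axis) of each probe set of the 36 genes with more than 1, where a ringed symbol is the brightest of its gene and squares lay below the background mark on every array. KIF20A and TUBB1 have called probe sets on both sides of 0, and KIF5B, KIF1B and KIF15 rose in dimmer probe sets and not in the brightest.

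Genes that work with these proteins were described from lists that leave the members out. Beside their counts, 47.0% of all named genes were called, 26.2% higher and 20.8% lower. Of named genes above the background mark on at least 1 array, 53% were called. Of 30 spindle and cytokinesis partners 16 rose and 1 fell (56.7% called), with a median change of 0.35. PRC1, which bundles the microtubules of the central spindle, changed by 1.14, the spindle protein gene CKAP2 by 0.87, the cleavage furrow scaffold gene ANLN by 0.79 and the checkpoint kinase gene BUB1B by 0.64 (0.22 with averaged probe sets). The member that fell was SPC25, a kinetochore subunit (-0.35). Of 16 proliferation markers 12 rose and 1 fell (81.2% called), with a median of 0.34. RRM1 changed by 0.99, TYMS by 0.62, CDC20 by 0.66 and MCM5 by 0.48. The member that fell was MKI67, the gene of the Ki-67 antigen of cycling cells (-0.42; limma, adjusted p = 0.00298).

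Of 16 kinesin light chains and cargo adaptors 6 rose and 2 fell (50% called against 47.0% of named genes), with a median of 0.12. KIFAP3, which links the KIF3A and KIF3B motors to cargo, averaged 10.76 in SCA2 and 8.82 in control, a change of 1.94 (SE 0.09; limma, adjusted p = 2.6e-05), against 0.61 for KIF3B and 0.17 for KIF3A. PLEKHM2, an adaptor of lysosomes, changed by 1.02, TRAK1, an adaptor of mitochondria, by 1.26 and MAPK8IP3, a scaffold that binds kinesin, by -1.0. With averaged probe sets TRAK1 changed by 0.40 and MAPK8IP3 by -0.50. Of 24 genes of cytoplasmic dynein and dynactin, the motor of the opposite direction and its activator, 10 rose and 4 fell (median 0.20). A share of 58.3% of them was called, against 47.0% of named genes. DYNC1I2 changed by 1.04, DYNC1LI2 by 0.78 and DYNLL2 by 0.73, while DYNLRB2, a light chain also used in cilia, changed by -1.89.

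Of 19 tubulin folding genes 8 rose and 2 fell (52.6% called against 47.0% of named genes, median 0.20). TBCD, a tubulin cofactor, changed by 0.84, the chaperonin subunit genes CCT3 and CCT2 by 0.66 and 0.44, and TBCC, another cofactor, by -0.36. The fall of TBCC was not called when its probe sets were averaged (limma, adjusted p = 0.344). Of 18 tubulin modifying enzymes 5 rose and 2 fell (38.9% called, median -0.01). The tubulin ligase family genes TTLL7, TTLL1 and TTLL5 changed by 1.81, 1.09 and 0.64 and TTLL9 by -0.76 (-0.37 with averaged probe sets).

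Microtubule associated proteins went both ways, with 11 of 36 higher and 8 lower (52.8% called against 47.0% of named genes, median 0.09). EML1 changed by 1.87, MAP4, a stabilizer found in most tissues, by 1.61, MAP2, its relative of neurons, by 1.45 and KATNAL1, related to the severing enzyme katanin, by 0.86. With averaged probe sets the changes were 0.99 for EML1, 0.47 for MAP4 and 0.73 for MAP2. Of 24 centrosome and augmin genes 10 rose and 2 fell (50% called, median 0.21). The centrin genes CETN2 and CETN3 changed by 1.32 and 0.88, CENPJ, of centriole growth, by 0.80 and PCM1, of the material around centrosomes, by -0.67. For the genes named here as the smallest p of these 8 lists, adjusted p in limma lay between 2.6e-05 and 0.00748.

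**Figure D5:**
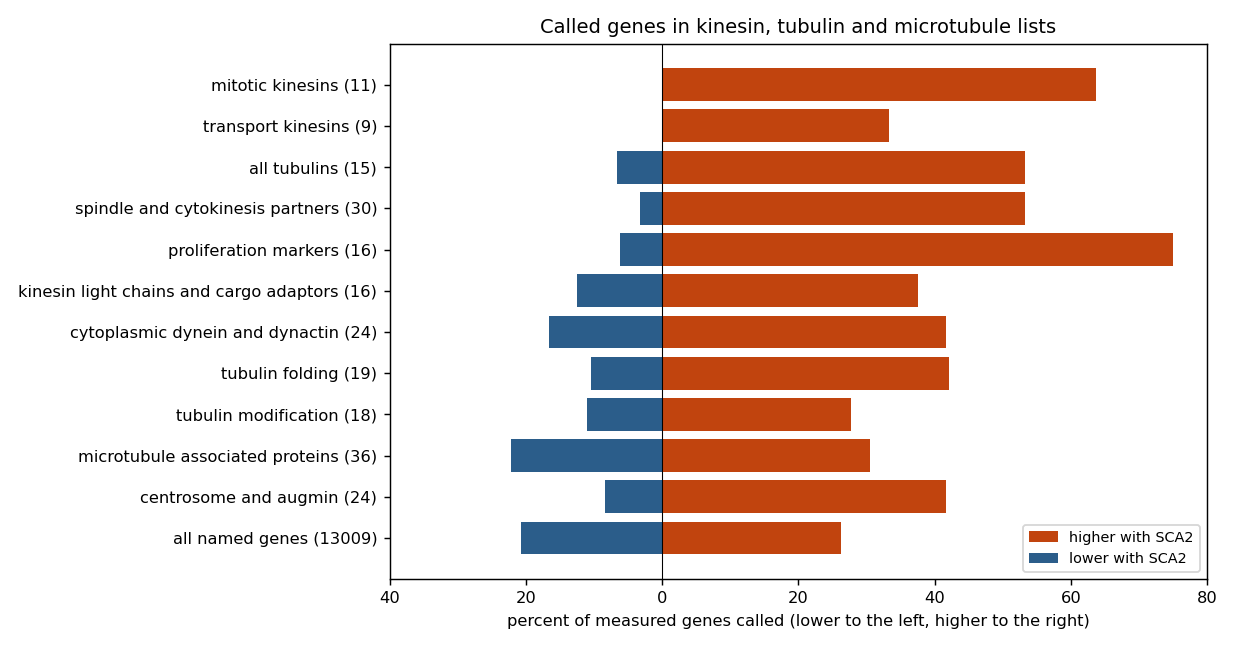
Percent of the measured genes of each list that were called higher (orange, right) or lower (blue, left) with SCA2, with the number of measured genes in brackets. Of all 13009 named genes 26.2% were higher and 20.8% lower, and of the mitotic kinesins 7 of 11 were higher.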

How the data were processed

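For every probe set the authors deposited a linear intensity on each array (4.28 to 20715), made with RMA per the submitters' processing notes. The version of RMA was not given in the sources used here. This method usually evens out the distributions of the arrays, which would hide a change shared by every gene. Their log2 was taken here; 96 array controls were left out and dim probe sets kept. Symbols came from the platform annotation, updated by gene identifier through RefSeq (all 52 member genes matched): 27168 probe sets had 1 symbol, 177 several and 11094 none.

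A limma linear model with 1 term for the group was fitted over all 6 arrays (R 4.3.3, limma 3.58.1; figures with Python 3.11.15 and matplotlib 3.10.9) and was tested on simulated data. Every member could be named. Per-array values were given, in each class, for up to 5 called members of smallest p and for the brightest, and a few others. Of each list, up to 4 called genes of smallest p were named; SPC25, MKI67, STMN1 and the cell markers were named after their values were seen. The members, classes and lists were chosen with earlier results of these data known. The labels call the replicates biological without saying that they came from separate birds, so p-values reflect the spread among 6 arrays and may be technical. Leave-out calls were followed for brightest probe sets and for the second ones of KIF20A and TUBB1. The labels give no batch.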

Additional observations from a re-analysis of the deposited data

How the results depend on the processing

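The alternatives were a replicate block, a second quantile normalization, median centring, log2 of the value plus 16, filters on dim probe sets, a robust fit with a variance trend, array weights, an adjusted p under 0.01, averaged probe sets, wider classes and leaving out each array. Of 96 recomputed counts and class differences 91 stayed within 1.5 times (or within 1 SD of) the value above. The exceptions were these. At an adjusted p under 0.01, 8381 of all probe sets and 34 kinesin and tubulin probe sets were called, against 13557 and 56 at 0.05. With averaged probe sets mitotic minus transport kinesins was 0.15, against 0.31. With KIF2A counted as mitotic and KIF21A and KIF21B as transport kinesins it was 0.42, and 5 transport kinesin genes were called, 3 higher and 2 lower. KIF2A rose and KIF21A and KIF21B fell, so this choice could only widen the difference. The kinesins CENPE (-0.17) and KIFC1 (-0.29), outside the member rule, stood in the list of spindle and cytokinesis partners and were not counted in either class. Both changes lie under the mean of 0.47 for the mitotic class, so counting them as mitotic would narrow the difference. By how much was not computed. Leaving out 1 array gave 9875 to 13083 calls over all probe sets, 42 to 51 over kinesin and tubulin probe sets, 6 to 7 mitotic, 2 to 3 transport and 7 to 8 tubulin genes, and a class difference of 0.26 to 0.36. Of the kinesin and tubulin probe sets 10 fell with array weights, against 6 above, while falls over all probe sets went to 7927 from 6565.

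With the replicate number as a block, 58 kinesin and tubulin probe sets were called, while calls over all 38439 probe sets went to 14531 from 13557. The called genes were 7 mitotic, 4 transport and 10 tubulin genes, KIF5B (limma, adjusted p = 0.0144) and TUBA3E (0.0423) among them. KIF21A (0.0652) and the second probe set of KIF20A (0.0565) lost their calls. Deviations of same-numbered arrays correlated with r of 0.41, 0.12 and 0.04, and those of differently numbered arrays with r from -0.45 to 0.33. These values do not settle whether the numbers mark pairs. The labels do not say so either, and the main fit took none. Median centring moved the share of higher calls to 56.5% from 51.6%.

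Genes not called above changed sign in places: after quantile normalization KIF11 (-0.04), KIF1B (-0.06) and TUBA8A (0.07), with median centring TUBA8A (0.03), with array weights TUBA8A (0.02), without SCA2 1 KIF16B (0.00) and TUBA8A (0.06), without SCA2 2 KIF1B (-0.02), without SCA2 3 TUBE1 (0.02), without control 1 TUBA8A (0.01), TUBAL3 (0.05) and TUBE1 (0.25), without control 2 KIF15 (-0.01), KIF16B (0.06) and KIF3A (-0.04), without control 3 KIF1B (-0.03), and with averaged probe sets KIF11 (-0.03), KIF13A (0.01), KIF14 (0.11), KIF16B (0.05) and KIF1BP (-0.01). Over the fits that left out 1 array KIF15 ran from -0.01 to 0.18, KIF16B from -0.24 to 0.06, KIF1B from -0.03 to 0.07, KIF3A from -0.04 to 0.43, TUBA8A from -0.05 to 0.06, TUBAL3 from -0.21 to 0.05 and TUBE1 from -0.47 to 0.25. With averaged probe sets TUBB1 turned to 0.21. Dim probe sets limit what can be said of KIF6, KIF27, KIF21A, KIF20AL, TUBA8A and TUBA8B. With 3 arrays a group, precision is limited throughout.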

Other observations

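Kinesins without a KIF number in their name stood apart from the members by name only. Chosen after their values were seen, CENPE, a kinesin of the kinetochore, averaged 9.86 in SCA2 and 10.03 in control (change -0.17, SE 0.21), and KIFC1, a motor that walks to the minus end, averaged 6.36 in SCA2 and 6.65 in control (change -0.29, SE 0.11). Neither passed the test in limma (adjusted p = 0.564 and 0.08). STMN1, which takes tubulin dimers out of use, averaged 12.11 in SCA2 and 12.72 in control, a change of -0.61 (SE 0.09; limma, adjusted p = 0.00227), while 8 of 15 tubulins rose on the same arrays.

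A probe set annotated to both TUBA1A and PTPRN, and so no member, measured 13.76, 13.76 and 13.75 in SCA2 and 13.67, 13.60 and 13.62 in control (change 0.13; limma, adjusted p = 0.187), beside 0.51 and 0.50 in the probe sets of TUBA1A alone.

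Arrays with the same replicate number resembled each other in some of the more variable members. Of the 10 kinesin and tubulin probe sets with an SD above 0.2 in both groups, 7 ranked the replicate numbers alike in SCA2 and in control, and in 6 array 1 was highest and array 2 lowest in both. These 6 are probe sets of KIF5B, KIF3A, KIF16B, KIF23 and TUBGCP4. The order was not shared by all probe sets of these genes. In the brightest probe sets of KIF5B and KIF16B array 2 was highest and array 1 lowest in both groups. Over all probe sets, 1443 of 3118 with such spread (46.3%) ranked the numbers alike, and 1227 in that order. What the numbers stand for beyond a biological replicate is not given in the labels.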
